A study of Rattus norvegicus with 39 samples.

Results

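The liver of rats given caerulein was compared with the liver of untreated rats on 14 of the 39 arrays of a study of liver gene expression 48 h after treatment. The 5 arrays titled Caerulein and the 9 titled untreated (control) were taken by their titles, with no measured value used. Each array is labelled as a separate biological replicate and holds total RNA of the left lateral lobe of 1 liver. The Caerulein rats received 50 µg/kg in saline by the intraperitoneal (i.p.) route, and the control rats received no treatment and no vehicle. Compound, vehicle and route can therefore not be told apart in the comparison with controls. Of the other groups, NMF (1000 mg/kg) was given in saline i.p. as well, DNP (15 mg/kg) in water by mouth, and Roziglitazone (1000 mg/kg, spelled as in the labels) in methylcellulose solution by mouth, in 5 rats each. All rats were 5 to 6 weeks old. Arrays of ANIT (125 mg/kg in corn oil by mouth) and DMN (15 mg/kg in water by mouth), from 5 rats each, entered the same fit. The labels used here do not spell out NMF or DNP and give no strain, no sex and no number of injections, and the pancreas was not analysed here.

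Caerulein is a peptide that acts like the gut hormone cholecystokinin (CCK) on the acinar cells of the pancreas, which make the digestive enzymes. High doses overstimulate these cells, and repeated injections are a standard way to cause acute pancreatitis in rodents. The liver receives the blood that drains from the pancreas and answers inflammation elsewhere in the body with the acute phase response: interleukin 6 and interleukin 1 act on hepatocytes, which then secrete plasma proteins such as A2m, Hp, fibrinogen, Orm1 and Lcn2. A2m, alpha-2-macroglobulin, is a protease inhibitor and in the rat one of the strongly induced acute phase proteins.

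No gene passed the test between the Caerulein and the control livers. Of 14217 genes tested with limma, 0 were called at an adjusted p under 0.05 (0% of the genes), and the lowest adjusted p was 0.236. At an unadjusted p under 0.05 there were 541 genes (3.81%), 215 above the control mean (1.51%) and 326 below it (2.29%). The largest differences in the genes of inflammation were those of Lcn2, with a mean 6.00 times and A2m with a mean 4.72 times that of the controls, and for both the 95% interval was wide and 1 or 2 Caerulein livers lay within the control range. A difference is given below as the Caerulein mean minus the control mean of log2 intensities, with its SE, and levels are log2 intensities. Counts of list members at an unadjusted p under 0.05 stand beside 1.51% of all genes above the controls and 2.29% below (main fit).

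The intervals bounded the differences. The median SE of a gene was 0.198 and the median 95% interval reached 0.40 to either side of the difference. The interval lay wholly within a 2-fold change for 13184 genes (92.7%). The differences themselves had a median of -0.017, and those between the 1st and 99th percentile ran from -0.61 to 0.60. A mean at least 2-fold above the controls was found for 21 genes and at least 2-fold below for 18. The 5 Caerulein arrays lay wholly outside the range of the 9 control arrays for 13 genes (0.0914%), 6 above (0.0422%) and 7 below (0.0492%). The further 9780 probe sets that have no gene symbol gave 0 calls, with 241 at an unadjusted p under 0.05. The plot of p against fold change shows this comparison beside that with NMF.

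**Figure D1:**
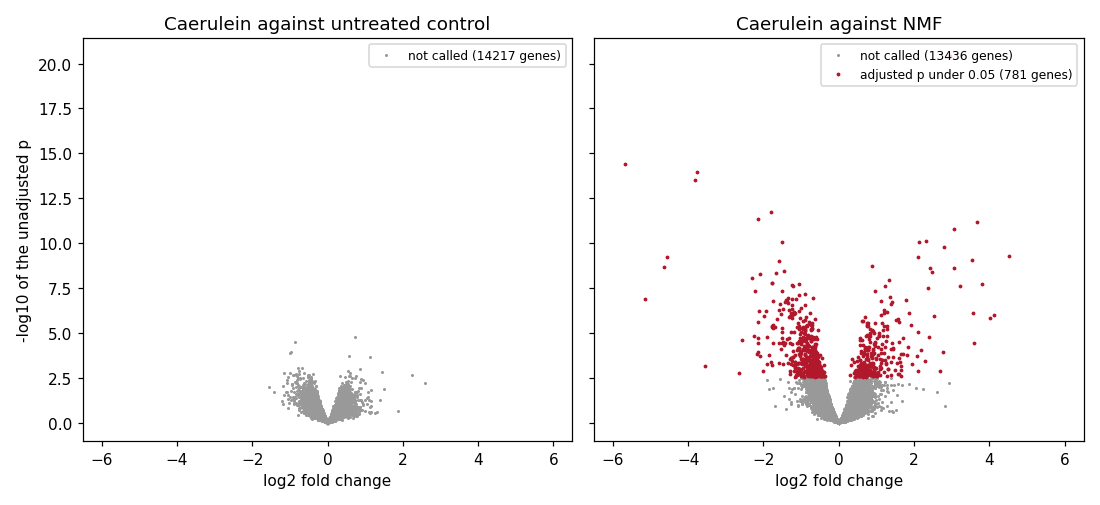
Each point is 1 of 14217 genes. The horizontal axis is the log2 fold change of Caerulein over untreated control (left panel) or over NMF (right panel) and the vertical axis is -log10 of the unadjusted limma p. Red points passed an adjusted p of 0.05: 0 genes against controls and 781 against NMF.

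The arrays differed in GAPDH control signal more among the controls than among the Caerulein livers. The GAPDH control probe sets at the 5′ end of the transcript read 12.26 to 12.60 in the Caerulein arrays, against 6.34 to 12.94 in the controls, where controls 4 and 5 were under 8. DMN 3, DNP 1, NMF 3 and Roziglitazone 1 were under 8 as well, and these with controls 4 and 5 are the arrays called low in GAPDH 5′ signal. Control 5 was also low at the 3′ end, at 8.09. Control 5 also had the lowest median correlation with the other 13 arrays, 0.9147, while the other arrays had 0.9554 to 0.9798. The 9 hepatocyte markers averaged 13.48 to 13.59 in the Caerulein arrays and 12.95 to 13.59 in the controls, with control 5 lowest. The highest correlation between any pair of the 14 arrays was 0.9883, so no array was a copy of another. No gene marks treatment with caerulein, so the labels could not be checked through a targeted gene. Across genes, which are not independent replicates, how far an array departed from the average was correlated with how far the rest of its group did: Caerulein 1, 2, 4 and 5 gave 0.46, 0.418, 0.486 and 0.325, and Caerulein 3 gave 0.21. Caerulein 3 was closer to the Roziglitazone group (0.417) and Caerulein 5 to the controls (0.337) than to their own group, and each of the 9 controls was closer to another group. Negative values with the own group were found for Roziglitazone 2 (-0.303, against 0.802 with ANIT), Roziglitazone 1 (-0.221), control 5 (-0.086) and DNP 1 (-0.0612). ANIT 3 (0.301, against 0.705 with DMN), DMN 2 (0.00344) and Roziglitazone 2, which earlier work on these data had named, were left out in an alternative fit, and the others were kept.

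The acute phase plasma proteins lay mostly above the controls, by amounts that did not pass the test. Of the 26 measured, 0 passed the test (0% of all genes did), 6 had an unadjusted p under 0.05 with a mean above the controls, where 1.51% of all genes had, and 0 had one below. The difference was above 0 for 24 of the 26, against 46.3% of all genes, and its median was 0.17, against -0.02 over all genes. It was above 0 for 21 with quantile normalization and 23 with array weights, each with a median of 0.12, and for 25 with the replicate block. Of the 9 hepatocyte markers, 8 were above 0 in the main fit and 5 with quantile normalization. The mean of the 26 was 12.63, 12.77, 12.33, 13.03 and 12.81 in Caerulein 1 to 5, against a lowest of 12.02, a median of 12.37 and a highest of 12.50 in the controls. Caerulein 3 lay within the control range and the other 4 above it. Without Caerulein 3 the count with an unadjusted p under 0.05 was 6 again and the median 0.18, without Caerulein 4 the count was 3, and without control 5 it was 4 with a median of 0.11. In whole tissue, more RNA per hepatocyte and a larger share of hepatocytes cannot be told apart.

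Lcn2, lipocalin 2, is a secreted protein that binds bacterial iron carriers. Its level was 10.87, 11.19, 6.76, 12.62 and 11.56 in Caerulein 1 to 5, against a lowest of 6.71, a median of 7.95 and a highest of 9.71 in the controls. Caerulein 1, 2, 4 and 5 were above every control, and Caerulein 3 was near the lowest control. The difference was 2.58 ± 0.90 (SE; 95% interval 0.77 to 4.40), with an adjusted limma p of 0.994 (unadjusted 0.00656). The SD among Caerulein livers was 2.25, against 0.96 among controls. Leaving out single arrays moved the difference between 2.08 and 3.54, the highest being that without Caerulein 3 (adjusted limma p 0.5).

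A2m read 9.19, 11.78, 10.24, 12.60 and 11.78 in the Caerulein livers, against a lowest of 7.14, a median of 8.89 and a highest of 10.55 in the controls. Here Caerulein 2, 4 and 5 were above every control, and Caerulein 1 and 3 were within the control range. The difference of 2.24 ± 0.68 (SE; 95% interval 0.85 to 3.62) had an adjusted limma p of 0.994 (unadjusted 0.00227). Leaving out single arrays moved it between 1.87 and 2.72.

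Mt2A, a metallothionein that binds zinc and copper, read 13.45, 13.50, 13.25, 13.68 and 13.72 in the Caerulein livers, against 11.25, 12.97 and 13.34 as lowest, median and highest of the controls. All but Caerulein 3 were above every control, and the difference was 0.93 ± 0.30 (SE; adjusted limma p 0.994). Mt2A averaged 12.59 in controls, 13.13 in DNP, 13.61 in NMF and 13.22 in Roziglitazone livers. Lbp, the binding protein for bacterial lipopolysaccharide, read 10.72, 11.57, 9.95, 11.96 and 11.35 in the Caerulein livers, against 10.03, 10.32 and 10.86 in the controls. Caerulein 3 was below every control and Caerulein 2, 4 and 5 above, with a difference of 0.73 ± 0.33. For Orm1, alpha-1-acid glycoprotein, all but Caerulein 3 were above every control, with 12.80 in Caerulein 3, 13.36 to 13.48 in the other Caerulein livers and 11.86 to 13.19 in the controls. Its difference was 0.45 ± 0.21. For Serpina3n, a serine protease inhibitor, the difference was 0.29 ± 0.13, and Caerulein 3 and 4, at 13.57 and 13.65, were the highest arrays.

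Hamp encodes hepcidin, the peptide hormone that limits iron export into blood and that interleukin 6 induces. Its level was 12.40, 11.65, 9.27, 13.07 and 13.15 in the Caerulein livers, against a lowest of 10.15, a median of 10.85 and a highest of 12.08 in the controls. Caerulein 3 was below every control and Caerulein 1, 4 and 5 were above, so the mean difference of 0.82 ± 0.54 had an interval from -0.27 to 1.90. Leaving out single arrays moved this difference between 0.51 and 1.48, the highest being that without Caerulein 3 (adjusted limma p 0.896, unadjusted 0.0061). Hp, haptoglobin, differed by 0.16 ± 0.10, Fgb, the fibrinogen beta chain, by 0.10 ± 0.10, and Crp, C-reactive protein, which is not a major acute phase protein in the rat, by 0.35 ± 0.32. These abundant transcripts read 13.98 to 14.18 (Hp), 13.66 to 13.99 (Fgb) and 13.13 to 13.62 (Crp) in the Caerulein livers. For none of the 3 did the 95% interval of the intensity difference reach a 2-fold change, and the highest upper bound was 1.99-fold, for Crp. Hp group means ran from 13.91 in NMF to 14.15 in ANIT and DMN livers. How far signals this bright follow the amount of RNA was not tested. The plot of acute phase genes by array marks Caerulein 3.

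**Figure D2:**
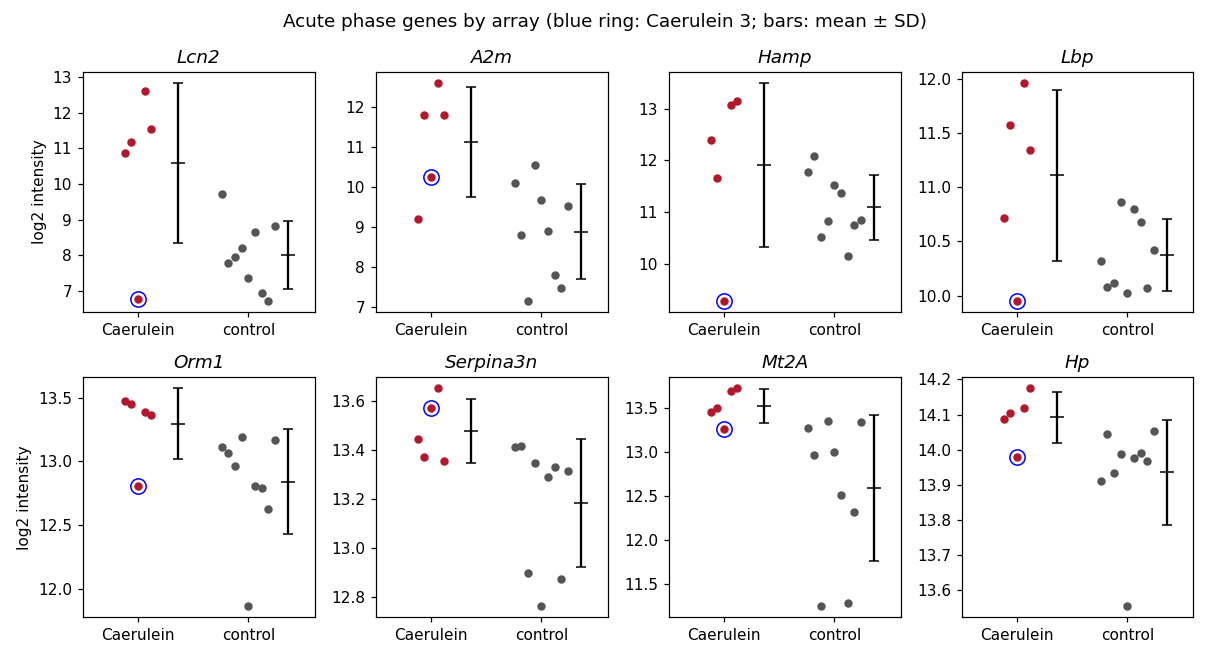
Log2 intensity (vertical axis) of 8 acute phase genes in each of the 5 Caerulein livers (red, left) and 9 control livers (grey, right), with the mean ± SD beside each group. Blue rings mark Caerulein 3, which has the lowest Caerulein value in 6 of the 8 panels, while the other 4 Caerulein livers lie above all controls for Lcn2, Orm1, Mt2A and Hp.

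Over the 26 acute phase genes, Caerulein 3 was the lowest of the 5 Caerulein arrays for 11 genes and Caerulein 4 for 0. Over all genes Caerulein 3 was the lowest for 27.0% and Caerulein 4 for 16.1%. Caerulein 4 was above every control for 16 of the 26 genes, Caerulein 2 and 5 for 11 each, Caerulein 1 for 8 and Caerulein 3 for 4. The shares of all genes above every control were 6.85%, 2.84%, 18.6%, 6.18% and 2.12% in Caerulein 4, 2, 5, 1 and 3, and the shares below every control were 9.59%, 7.69%, 13.1%, 6.3% and 11.1%. Caerulein 5 had the highest share of all genes on both sides.

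The cytokine signals known to act upstream of this response had 0 calls. Of 27 measured genes of the interleukin 6, STAT3 and NF-kB response, 0 passed the test, and the list median was 0.06. At an unadjusted p under 0.05 there were 2, both above the controls, where 1.51% of all genes were. They were Il1b, interleukin 1 beta, at 0.62 ± 0.27 and Tnfaip2, a gene induced by tumour necrosis factor, at 0.41 ± 0.20. The count of 2 became 0 without Caerulein 5, control 1 or control 8. Il1b read 7.64, 7.36, 7.06, 7.82 and 7.58 in the Caerulein livers and 5.96, 6.99 and 7.48 as lowest, median and highest of the controls, so the groups overlapped. Socs3, the feedback inhibitor that STAT3 switches on, read 6.25 to 7.38 in the Caerulein livers and 6.13 to 7.10 in the controls, with a difference of 0.06 ± 0.18. Of 23 chemokines and adhesion genes, 0 had an unadjusted p under 0.05, and the lowest p was that of the neutrophil chemokine Cxcl3, at 0.41 ± 0.23. Its other probe sets gave 0.46, 0.02, 0.45 and -0.08. Complement and coagulation had 0 of 26 below that p with a median of 0.08, where Masp1, a protease of the lectin pathway, had the lowest p at -0.30 ± 0.15, with 0.38 and 0.01 at its other probe sets. The interferon response had 1 of 21, Rig1 (the array's symbol for the viral RNA sensor), at -0.59 ± 0.26, with a median of -0.12, and 0 without Caerulein 4, Caerulein 5 or control 5.

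Genes of the pancreas showed no difference that passed the test. The 15 acinar genes had a median difference of -0.01, and 0 of them had an unadjusted p under 0.05. Their mean level was 5.72 to 6.32 in the Caerulein arrays and 5.71 to 6.06 in the controls, and 4 of the 15 had means in both groups below 4.70. That is the highest mean level of the poly-A spike probe sets, with a Phe probe set left out, and stands for near background here. Amy2a3, pancreatic amylase, read 3.62 to 4.06 in the Caerulein livers and 3.60 to 4.15 in the controls. Prss1, trypsinogen, differed by 0.11 ± 0.18, Cpa1, carboxypeptidase A1, by -0.17 ± 0.27, Pnlip, pancreatic lipase, by -0.17 ± 0.22 and Cela1, an elastase, by -0.53 ± 0.35. The CCK receptor gene Cckar was not analysed here.

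Spink1, the trypsin inhibitor that acinar cells secrete and that the rat liver also makes, had 3 probe sets that disagreed in size. The brightest, which stood for the gene, read 8.62, 9.15, 9.13, 9.43 and 9.23 in the Caerulein livers and 7.96 to 9.41 in the controls, a difference of 0.47 ± 0.30. The other 2 were looked at after the values were seen. The second probe set read 10.09, 10.55, 6.88, 10.03 and 10.14 in Caerulein 1 to 5, against a lowest of 6.84, a median of 7.83 and a highest of 9.58 in the controls. The third read 9.10, 9.84, 6.17, 9.16 and 9.19, against 5.10, 6.73 and 8.79. In both, Caerulein 1, 2, 4 and 5 were above every control and Caerulein 3 was below the control median. Caerulein 3 was also the lowest Caerulein liver for Lcn2. The differences were 1.61 ± 0.51 and 1.66 ± 0.56, each with an adjusted limma p of 0.998 over all 20826 probe sets with 1 symbol, of which 0 were called (0%). Leaving out single arrays moved them between 1.36 and 2.27 and between 1.37 and 2.29. The highest values were those without Caerulein 3, with adjusted limma p of 0.22 and 0.404.

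Markers of immune and other cell types had few low p. None of the 8 neutrophil, 11 macrophage, 11 lymphocyte, 4 erythroid, 6 endothelial, 6 adipose, 4 mesothelial or 9 hepatocyte markers had an unadjusted p under 0.05, with list medians of 0.10, 0.10, 0.15, -0.39, -0.17, -0.12, 0.29 and 0.06. The erythroid count depended on the fit. It was 3 of 4, below the controls, with array weights, where 4.94% of all genes were. It was 2 of 4 with only the Caerulein and control arrays (3.27% of all genes) and without ANIT 3, DMN 2 and Roziglitazone 2 (2.81%). With the replicate block (4.32%) and without control 2 it was also 2 of 4. S100a8 and S100a9, the calprotectin subunits of neutrophils, read 6.98 to 7.79 and 7.67 to 9.11 in the Caerulein livers and 6.48 to 8.35 and 7.35 to 9.42 in the controls, and their differences were 0.07 ± 0.45 and -0.02 ± 0.53. The lowest p in these lists belonged to Camp, an antimicrobial peptide (0.34 ± 0.27), C1qb, a complement subunit of macrophages (0.61 ± 0.39, and 0.32 without control 5), Ms4a1, CD20 of B cells (0.29 ± 0.19), Alas2, the erythroid heme enzyme (-0.71 ± 0.35), Tek, the angiopoietin receptor (-0.38 ± 0.20), Cidec, a lipid droplet protein (-0.30 ± 0.16), Lrrn4 of mesothelium (0.32 ± 0.27, with -0.10 and 0.31 at its other probe sets) and Apoa1, the apolipoprotein of high density lipoprotein (0.14 ± 0.12).

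Stellate cell and matrix genes had more low p below the controls than above. Of 10, 0 passed the test, 3 had an unadjusted p under 0.05 with a mean below the controls (2.29% of all genes had), and the median was -0.42. Col1a1, a chain of type I collagen, read 7.92, 7.43, 8.35, 7.97 and 7.53 in the Caerulein livers, against 7.91, 8.92 and 10.10 as lowest, median and highest of the controls. All 5 were below the control median, and the difference was -1.04 ± 0.33 (adjusted limma p 0.994). Col3a1, of type III collagen, differed by -0.42 ± 0.20 and Lum, lumican, by -1.06 ± 0.44, with a Caerulein mean near background. The count was 1 and the median -0.31 without control 3, the highest control for Col1a1 and Lum, and with other single arrays left out the count was 2 to 4. The list's mean level was 7.12 to 7.54 in the Caerulein arrays and 7.37 to 8.69 in the controls. Among 6 cholangiocyte markers, Krt19, keratin 19, had the only unadjusted p under 0.05, at -0.56 ± 0.25, and the median was -0.01. The count was 0 without Caerulein 1, Caerulein 2 or any one of controls 5, 6 and 7.

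**Figure D3:**
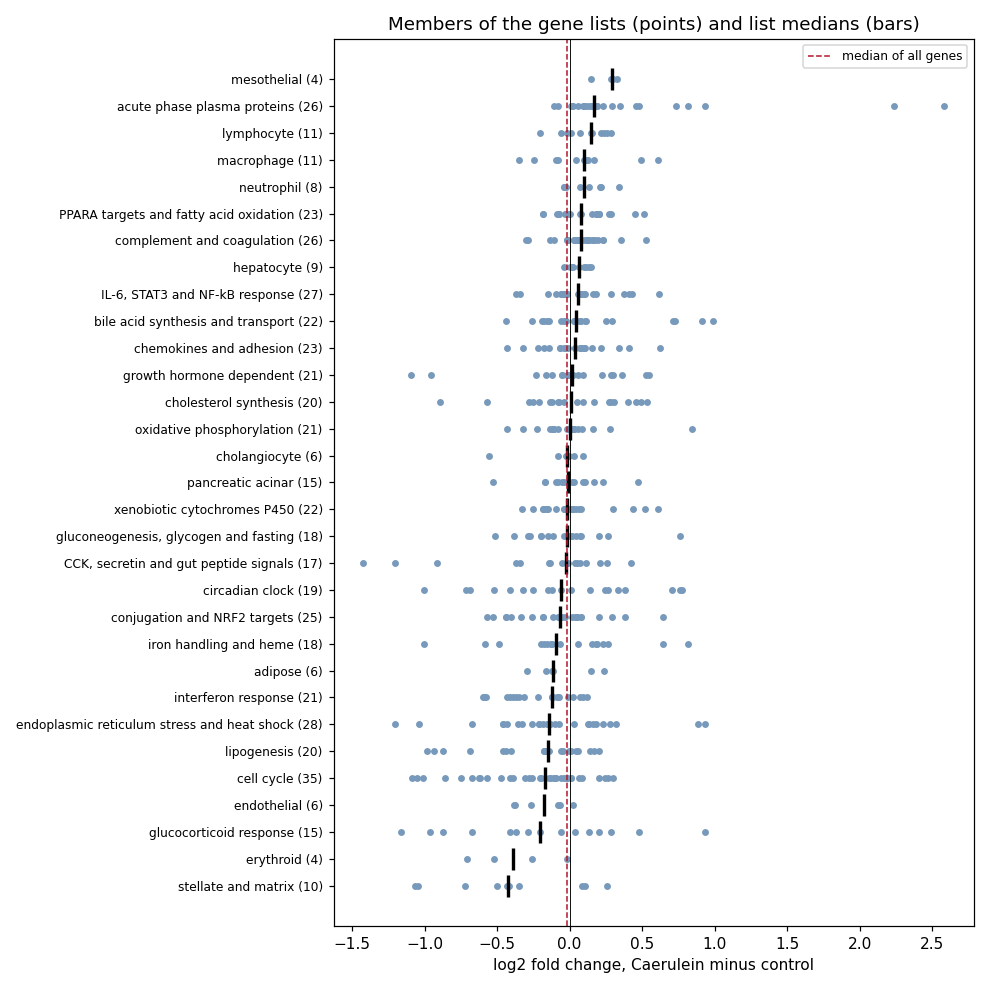
Each point is a gene of the list named at the left, with the number measured in brackets, placed at its log2 difference, Caerulein minus control. Black bars are list medians, from -0.42 for stellate and matrix to 0.29 for the 4 mesothelial genes, and the dashed line is the median of all genes at -0.02; Lcn2 and A2m are the 2 acute phase points beyond 2.

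Of the 20 genes with the lowest p, 10 in each direction, A2m, Alas1 and Cry1 were members of a list. Pkp2, plakophilin 2 of desmosomes, had the lowest p of all. It read 9.24, 9.36, 9.15, 9.23 and 9.47 in the Caerulein livers, against a lowest of 8.17, a median of 8.61 and a highest of 8.89 in the controls. The groups did not overlap, and the difference was 0.74 ± 0.15 (SE; 95% interval 0.43 to 1.04), or 1.66-fold, with an adjusted limma p of 0.236. Its mean was 9.09 ± 0.32 in DNP, 8.45 ± 0.21 in NMF and 9.05 ± 0.25 in Roziglitazone livers (SD, n = 5 each).

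Pla2g12a, a secreted phospholipase A2, read 9.37, 9.95, 9.50, 10.02 and 10.46 in the Caerulein livers, against 8.16, 8.84 and 9.32 in the controls. It also had no overlap, and the difference was 1.12 ± 0.27 (adjusted limma p 0.541). Pla2g12a averaged 8.74 in controls, 9.35 in DNP, 10.86 in NMF and 9.05 in Roziglitazone livers, so it was highest in NMF livers. Ints10, a subunit of the Integrator complex that processes small nuclear RNA, differed by 1.44 ± 0.42, with 4 of 5 Caerulein livers above every control, but by -0.05 at its other probe set. Nifk, a nucleolar protein that binds Ki-67, differed by 0.56 ± 0.13, and by 1.47 and 0.26 at its other 2. Its mean was 9.29 in controls, 9.72 in DNP, 9.8 in NMF and 9.59 in Roziglitazone livers. The remaining genes of the 10 lowest p above the controls, with A2m, were Ppp1r12c, a myosin phosphatase subunit (0.85 ± 0.24), Wdhd1, a DNA replication factor (0.54 ± 0.16), Mrpl47, a mitochondrial ribosomal protein (0.60 ± 0.18), Ppcs, an enzyme of coenzyme A synthesis (0.57 ± 0.17), and Ly75, an endocytic receptor near background here (0.61 ± 0.19).

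Slc39a4, the zinc importer ZIP4, had the lowest p among genes below the controls. It read 9.13, 8.46, 9.59, 8.89 and 8.51 in the Caerulein livers, against 9.26, 9.92 and 10.06 as lowest, median and highest of the controls. All but Caerulein 3 were below every control, and the difference was -0.86 ± 0.18 (95% interval -1.23 to -0.49, adjusted limma p 0.24). Leaving out single arrays moved it between -1.03 and -0.74. It was -1.03 without Caerulein 3, and Slc39a4 was then the single gene that passed, with an adjusted limma p of 0.0351 (1 of 14217 genes). Spon2, a matrix protein, read 7.42, 6.97, 7.67, 6.93 and 6.98 in the Caerulein livers, against 7.48, 8.11 and 8.77, a difference of -0.98 ± 0.23 (adjusted limma p 0.452). Slc39a4 averaged 9.78 in controls, 9.62 in DNP, 8.68 in NMF and 9.41 in Roziglitazone livers. Spon2 averaged 8.17, 7.74, 6.8 and 7.71 in the same groups. For both genes the NMF mean was farther from the control mean than the Caerulein mean was. When arrays were weighted by their quality, 5 genes passed (0.0352%): Pkp2, Pla2g12a and Zfp709l1 above the controls and Spon2 and Slc39a4 below, with a lowest adjusted p of 0.00902.

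The other genes of the 10 lowest p below the controls, next to Alas1 and Cry1 described with their lists, were Foxo3, a transcription factor of the insulin pathway (-1.17 ± 0.35), Cog7, a Golgi tether (-0.78 ± 0.22), Sufu, an inhibitor of hedgehog signalling (-0.66 ± 0.19), Edem2, which feeds misfolded glycoproteins to degradation (-0.75 ± 0.22), Pxdn, a peroxidase that crosslinks collagen IV (-0.62 ± 0.18), and Armcx2, near background (-0.77 ± 0.23). Other probe sets gave 0.16 and -0.39 for Foxo3, -0.01 for Cog7 and -0.16 for Pxdn. In the plot of these 20 genes the groups overlap for all but Pkp2 and Pla2g12a.

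**Figure D4:**
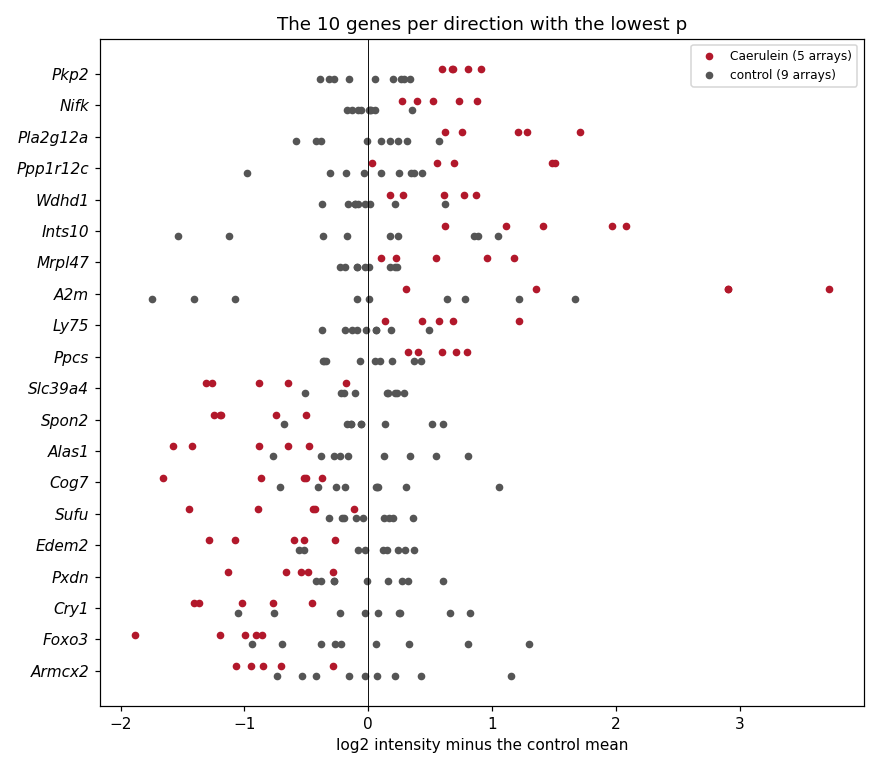
The 10 genes per direction with the lowest unadjusted p, each array's log2 intensity minus the control mean of that gene on the horizontal axis. Red points are the 5 Caerulein livers and grey points just under them the 9 controls; Pkp2 and Pla2g12a are the 2 rows in which no red point reaches the grey range.

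Iron and heme genes included a lower mean of Alas1. Of 18, 0 passed the test and 2 had an unadjusted p under 0.05, both below the controls, and the median was -0.10. Alas1, the rate-limiting enzyme of heme synthesis in liver, read 10.20, 10.60, 10.43, 9.66 and 9.51 in the Caerulein livers, against a lowest of 10.31, a median of 10.92 and a highest of 11.89 in the controls. Caerulein 1, 4 and 5 were below every control, and the difference was -1.0 ± 0.23 (95% interval -1.48 to -0.53, adjusted limma p 0.452). Fech, ferrochelatase, which puts iron into heme at the end of that pathway, read 9.85, 10.11, 10.01, 10.17 and 9.36, against 10.03, 10.53 and 10.64 in the controls, a difference of -0.49 ± 0.16.

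Lipid genes varied within the Caerulein group. Of 20 lipogenesis genes, 0 passed the test and 2, Scd and Lpin1, had an unadjusted p under 0.05 below the controls, with a median of -0.15. Scd, stearoyl-CoA desaturase, read 12.75, 11.76, 12.72, 10.79 and 10.69 in the Caerulein livers, against 12.01, 12.68 and 13.27 as lowest, median and highest of the controls. Caerulein 2, 4 and 5 were below every control and Caerulein 1 and 3 above the control median, so that the difference of -0.93 ± 0.33 rested on 3 livers. Lpin1, a phosphatidic acid phosphatase, differed by -0.87 ± 0.41. The count of 2 became 0 without Caerulein 4 or Caerulein 5 and 1 without control 5. Cholesterol synthesis had 1 of 20, Stard4, a sterol carrier (-0.57 ± 0.28, with -0.31 and 0.19 at its other probe sets), with a median of 0.01, and 0 without any one of 7 single arrays. Of 23 PPARA targets and fatty acid oxidation genes, 0 had an unadjusted p under 0.05, the median was 0.08, and Cpt1a, which admits fatty acids to mitochondria, had the lowest p (0.45 ± 0.25, with 1.43 at its other probe set).

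Bile acid genes had 0 of 22 at an unadjusted p under 0.05 and a median of 0.04. Up to 2 were above the controls when single arrays were left out, and 4 with array weights, where 4.1% of all genes were. Cyp7a1, the rate-limiting enzyme of bile acid synthesis, read 11.12, 11.97, 10.46, 10.49 and 10.33 in the Caerulein livers, against a lowest of 7.61, a median of 9.85 and a highest of 12.12 in the controls. The controls spread so widely that all 5 Caerulein values lay within their range, and the difference was 0.91 ± 0.68. Cyp8b1, which sets the share of cholic acid, read 12.17, 12.50, 11.75, 11.67 and 11.38, against 10.61, 11.33 and 11.56. Caerulein 1 to 4 were above every control, with a difference of 0.71 ± 0.44 (95% interval -0.17 to 1.59). Abcg5, a subunit of the sterol exporter, had the lowest p of the list at 0.99 ± 0.51.

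Among genes of drug metabolism, Por, the reductase that feeds electrons to cytochromes P450, was the 1 of 22 with an unadjusted p under 0.05 (0.44 ± 0.16, with 1.07 at its other probe set), and the list median was -0.02. Conjugation and NRF2 targets had 1 of 25, Tkt, transketolase (-0.33 ± 0.13), with a median of -0.07, and 0 without Caerulein 4 or Caerulein 5. Genes that depend on growth hormone had 2 of 21, Cish, a cytokine feedback inhibitor (-0.96 ± 0.34, with -0.28 at its other probe set), and Inmt, an indole methyltransferase (-1.09 ± 0.45), with a median of 0.02, and 1 without Caerulein 2 or Caerulein 4. Cyp2c11, the male-typical P450 of rat liver, differed by -0.16 ± 0.37. Stac3 read 10.82, 8.96, 11.26, 9.24 and 10.39 in the Caerulein livers and 10.32 to 11.36 in the controls, a difference of -0.70 ± 0.62. Gluconeogenesis, glycogen and fasting genes had 0 of 18 and a median of -0.02, with Ppp1r3b, a glycogen-targeting subunit, lowest in p (-0.52 ± 0.32, with 0.42 at its other probe set), Tat, tyrosine aminotransferase, at -0.29 ± 0.32 and Igfbp1, an insulin-suppressed binding protein, at 0.05 ± 0.53. Oxidative phosphorylation had 2 of 21, both subunits of complex I below the controls, and a median of 0.00. Of these Ndufb5 (-0.32 ± 0.14) did not overlap, with 11.21 to 11.42 in the Caerulein livers and 11.43 to 12.11 in the controls, and Ndufs1 differed by -0.43 ± 0.20. The count of 2 became 0 without Caerulein 5 or without control 5, one of the arrays low in GAPDH 5′ signal, and 0 without all of those arrays.

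Most cell cycle genes had a mean below the controls. The list had 0 calls among 35, 4 with an unadjusted p under 0.05 below the controls, 27 with a difference below 0 (53.7% of all genes were), and a median of -0.17. The 4 were Cdkn3, a cell cycle phosphatase (-1.09 ± 0.36), Ube2c, of the anaphase-promoting complex pathway (-1.05 ± 0.46), Cdk1, the mitotic kinase (-0.86 ± 0.41), and Stmn1, stathmin (-0.62 ± 0.30). Cdkn3 read 5.47 to 6.93 in the Caerulein livers and 6.46 to 7.99 in the controls, with 4 Caerulein livers below every control. With single arrays left out the count below the controls was 2 to 5, and it was 2 without Caerulein 2, 4 or 5 or control 4, 5, 7 or 8. It was 9 with only the Caerulein and control arrays, 8 with array weights and 1 without the arrays low in GAPDH 5′ signal. Of all genes, 2.29% lay below the controls at that p in the main fit. The share was 3.27% with only the Caerulein and control arrays and 4.94% with array weights.

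In the list of CCK, secretin and gut peptide signals, 2 of 17 had an unadjusted p under 0.05, and the median was -0.03. Both were growth-related transcription factors below the controls, Myc (-1.43 ± 0.58) and Jun (-0.91 ± 0.45). For this and the following lists, 1.51% of all genes had such a p above the controls and 2.29% below. Myc read 7.29, 6.49, 6.91, 6.42 and 5.79 in the Caerulein livers, against 6.28, 7.93 and 10.14, with the highest value in control 5. The count of 2 became 0 without Caerulein 5 and 1 without control 5. Endoplasmic reticulum stress and heat shock had 3 of 28, Asns, asparagine synthetase, above (0.89 ± 0.29) and the chaperone-linked Dnajb11 (-0.43 ± 0.14) and Creld2 (-0.46 ± 0.19) below, with a median of -0.14. The count below was 1 without Caerulein 2 and 5 without Caerulein 3 or control 9. Atf3, a stress-induced transcription factor, did not overlap, with 4.65 to 5.51 in the Caerulein livers and 5.59 to 8.37 in the controls, and its difference of -1.21 ± 0.63 had an unadjusted p of 0.0624. Glucocorticoid response genes had 4 of 15, Mt2A above and Sgk1, a kinase (-1.16 ± 0.51), Tsc22d3, the glucocorticoid-induced leucine zipper (-0.97 ± 0.39), and Lpin1 below, with a median of -0.21. The count below was 1 without control 5, the highest control for Sgk1 and Tsc22d3.

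Of 19 clock genes 0 passed the test and 3 had an unadjusted p under 0.05, with a median of -0.06. The shares of all genes at that p were 1.51% above and 2.29% below the controls. Cry1, a repressor of the clock, read 7.51, 7.27, 7.83, 6.91 and 6.88 in the Caerulein livers, against 7.23, 8.36 and 9.11 in the controls, a difference of -1.0 ± 0.30. Nr1d1, REV-ERB alpha, differed by 0.78 ± 0.34 and Tef, an output factor of the clock, by 0.34 ± 0.15, and the count above the controls became 0 without Caerulein 2, Caerulein 3 or control 7. Dbp, another output factor, read 7.40 to 7.92 in the Caerulein livers but 4.88 to 7.93 in the controls (0.76 ± 0.48), and Bmal1, the activator, differed by -0.06 ± 0.27. The hour of the day at which the livers were taken is not given in the labels, so its part in these values was not tested.

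Caerulein livers were also set against the other compounds. Against NMF, given in the same vehicle by the same route, 781 genes passed the test (5.49%), 293 higher (2.06%) and 488 lower (3.43%) in Caerulein livers. At an unadjusted p under 0.05 there were 8.03% higher and 9.36% lower. Of the called genes 106 were at least 2-fold higher and 154 at least 2-fold lower. With arrays centred on their medians the split was 227 higher and 646 lower. Against DNP 0 genes were called (0%; 270 at an unadjusted p under 0.05, 0.464% of genes higher and 1.43% lower), and against Roziglitazone 0 (0%; 1072, 4.08% higher and 3.46% lower), also without Roziglitazone 2. The genes named below against NMF were picked after their values were seen, from the called list members, and are not in each list those of largest fold.

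Counts of list members against NMF are of genes that passed the test, as 2.06% of all genes did above NMF and 3.43% below. Growth hormone dependent genes were called higher than in NMF livers for 13 of 21 and lower for 0. Car3, a carbonic anhydrase of male rat liver, averaged 13.43 ± 0.22 in Caerulein and 9.85 ± 0.91 in NMF livers (SD, n = 5 each), a difference of 3.58 ± 0.60 (adjusted limma p 0.00015), while the controls averaged 13.55 ± 0.13. Complement and coagulation had 13 of 26 higher, among them C6, a part of the membrane attack complex, with 10.54 ± 0.55 in Caerulein, 7.74 ± 0.76 in NMF and 10.50 ± 0.25 in control livers. Lipogenesis had 8 of 20 higher, with Scd at 11.74 ± 1.0 in Caerulein and 8.07 ± 0.34 in NMF livers. Cytochromes P450 had 7 of 22 higher, with Cyp1a2, which oxidizes aromatic amines, at 13.04 ± 0.15 in Caerulein, 10.08 ± 0.31 in NMF and 13.04 ± 0.19 in control livers. Stac3 was higher by 4.13 ± 0.71.

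Bile acid synthesis and transport had 8 of 22 called higher and 2 called lower in Caerulein than in NMF livers. Cyp7a1 was higher by 3.60 ± 0.77 (10.87 ± 0.69 in Caerulein and 7.27 ± 0.82 in NMF livers), and Abcc3, a basolateral exporter of bile acids and conjugates, was lower by 5.15 on the log2 scale, with 5.22 ± 0.52 in Caerulein and 10.37 ± 0.57 in NMF livers. Conjugation and NRF2 targets had 14 of 25 lower and 0 higher, led by Akr1b8, an aldo-keto reductase, with 6.11 ± 0.36 in Caerulein, 11.79 ± 1.07 in NMF and 6.03 ± 0.65 in control livers. Endoplasmic reticulum stress and heat shock had 10 of 28 lower, with the chaperone partner Sdf2l1 at 10.43 ± 0.30 in Caerulein and 11.67 ± 0.10 in NMF livers. Hspa1a, an inducible heat shock protein, had 6.81 ± 0.43 in Caerulein and 8.82 ± 1.42 in NMF livers, a call lost in 10 of 20 alternative fits. Asns was lower by 1.29 on the log2 scale, a call lost in 1 of 20. Of the 50 called genes followed through those fits, 27 kept their calls in every fit that held them, which was 19 fits for Gpx2 and 20 for the others. Among them were Car3, C6, Scd, Cyp1a2, Stac3, Cyp7a1, Abcc3, Akr1b8 and Sdf2l1. These 9 were picked after their values were seen, and for each the Caerulein mean was within 1 of the control mean on the log2 scale. The widest gaps were those of Scd (11.74 against 12.67) and Cyp7a1 (10.87 against 9.96). Not all followed genes were that close, as with A2m (11.12 against 8.88) and Hspa1a (6.81 against 7.85).

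Of the 26 acute phase genes 4 passed the test with a mean above that of NMF livers and 0 with one below. The shares of all genes were 2.06% and 3.43%. A2m was one of them, with 8.42 ± 1.30 in NMF livers (SD, n = 5) and a difference of 2.70 ± 0.77 (adjusted limma p 0.0311). That call was lost in 6 of 20 alternative fits, where the adjusted p reached 0.107. In DNP livers A2m averaged 9.96 ± 1.48 and in Roziglitazone livers 10.63 ± 1.77 (SD, n = 5 each), against 8.88 in controls. The Caerulein mean of A2m was above DNP by 1.16 ± 0.77 and above Roziglitazone by 0.49 ± 0.77 (adjusted limma p 0.998 and 0.837). Lcn2 averaged 10.60 ± 2.25 in Caerulein and 7.66 ± 0.85 in NMF livers, with an adjusted p of 0.0862 for the difference of 2.94 ± 1.02. In DNP livers Lcn2 read 6.69, 6.89, 8.88, 7.04 and 6.39, and the Caerulein mean was 3.42 ± 1.02 above theirs (adjusted limma p 0.998). In Roziglitazone livers it read 7.24, 13.30, 12.89, 6.19 and 9.10, so 2 of those livers were above every Caerulein liver, and the difference was 0.85 ± 1.02.

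Spink1 at its second probe set averaged 9.54 ± 1.5 in Caerulein livers, 7.73 ± 0.44 in DNP, 6.41 ± 0.99 in NMF and 8.81 ± 0.71 in Roziglitazone livers, and 7.93 ± 0.92 in controls (SD; n = 5, and 9 controls). The highest value was 10.55 among the Caerulein livers, 8.11 in DNP, 7.90 in NMF, 9.50 in Roziglitazone and 9.58 in controls. The brightest probe set, which stood for the gene, averaged 9.11 ± 0.3 in Caerulein, 9.04 ± 0.43 in DNP and 9.12 ± 0.83 in Roziglitazone livers. In NMF livers it averaged 8.01 ± 0.72 and in controls 8.64 ± 0.5. The third averaged 8.69 in Caerulein, 6.82 in DNP, 5.75 in NMF, 7.87 in Roziglitazone and 7.03 in control livers. The plot of 6 genes across groups shows the second probe set.

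**Figure D5:**
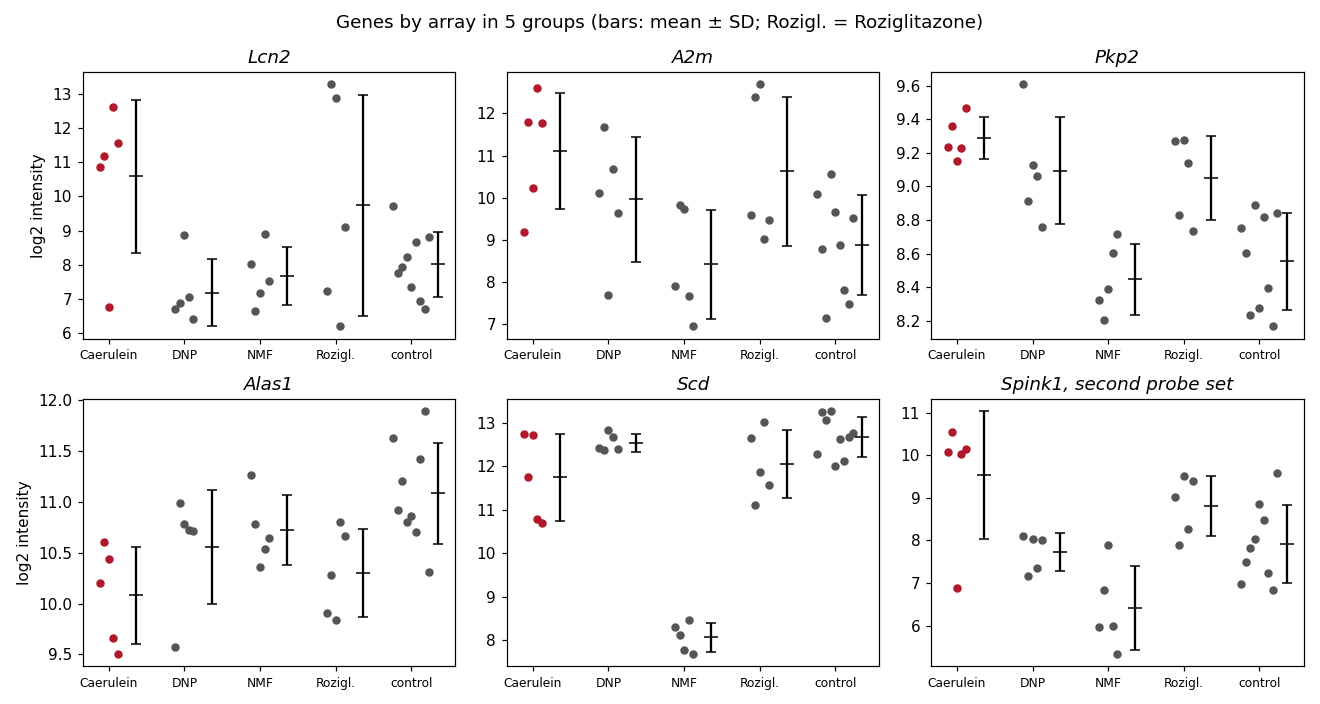
Log2 intensity (vertical axis) of Lcn2, A2m, Pkp2, Alas1, Scd and the second Spink1 probe set in each liver of 5 groups, Caerulein in red at the left and controls at the right, with the mean ± SD beside each. In the Lcn2 panel Caerulein 3 and 2 of the 5 Roziglitazone livers sit within the control range and 1 Roziglitazone liver below it, and in the Scd panel all NMF livers lie below 9.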

How the data were processed

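Total RNA was hybridised to 1-colour Affymetrix rat GeneChip arrays. The deposited table holds linear intensities processed by the authors before deposit, and the submitters' processing notes name RMA and affy, with no version. The log2 of each intensity was taken, with no further normalization. Of 31099 probe sets, 57 were array controls, 20826 had 1 gene symbol, 436 several and 9780 none. For each of 14217 genes the probe set with the highest mean was used. Other probe sets of Tnfaip2, Jun, Tef and Lpin1 are not given here. All 39 arrays entered one limma 3.58.1 model (R 4.3.3) with 7 group means, with Benjamini-Hochberg adjustment over all genes and a call at an adjusted p under 0.05. The fit was tested on simulated data. Named genes were the 10 per direction with the lowest p, since fewer than 5 were called, the member with the lowest p of each of 31 lists, and a set of fixed names. List members with an unadjusted p under 0.05, Atf3, the further Spink1 probe sets and the NMF examples were added after their values were seen. Members and lists were chosen with earlier results of these data known. Alternatives changed the arrays, scaling, normalization, weights, prior, filter, probe set rule, replicate block and per-gene test. The median intensity per array was 91.9 to 108.7 in Caerulein and 84.9 to 104.9 in control arrays. Precision is limited by how many arrays each group has.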

Additional observations from a re-analysis of the deposited data

Results flagged for a closer look

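In 10 of 180 gene and group combinations, 1 array stood apart from the rest of its group by Dixon's criterion, where chance gives about 1 in 20. In the Caerulein group these were Orm1 in Caerulein 3, at 12.80 against 13.36 to 13.48 in the other 4, Lum in Caerulein 4, at 3.67 against 4.34 to 4.58, and Sgk1 in Caerulein 4, at 9.60 against 8.06 to 8.46. The other 7 were in controls, 6 of them in control 5. Control 5 was highest for Rig1 (10.40) and Tek (8.84) and lowest for C1qb (7.88), Apoa1 (12.88), Hp (13.55) and Orm1 (11.86). Nifk was highest in control 4, at 9.64 against 9.12 to 9.34 in the others. Controls 4 and 5 are also the controls with low GAPDH 5′ signal, and the part of that in these values was not tested.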

How the results depend on the processing

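Against controls, the count of called genes was 0 under every alternative except array weights, with 5 genes, and one left-out array. Leaving out single arrays gave 0 to 1 genes, the 1 being Slc39a4 without Caerulein 3, and 379 to 765 genes at an unadjusted p under 0.05. Against DNP and Roziglitazone the count stayed 0 under every alternative. Against NMF it was 1782 with array weights, 1315 without the arrays low in GAPDH 5′ signal and ANIT 3, DMN 2 and Roziglitazone 2 (chosen after seeing the data), and 513 (without NMF 4) to 734 when single arrays were left out. The deviations of same-numbered Caerulein and control arrays had correlations of 0.164, -0.247, 0.196, -0.0803 and -0.212. Of the 5 Caerulein arrays, 1 matched its own number best. A batch shared by same-numbered arrays was not tested, and the labels name none. With the replicate block 0 genes were called against controls, with 988 at an unadjusted p under 0.05 (541 in the main fit), and 786 against NMF. Of 2329 values of single genes against controls, 2287 kept direction and side of the threshold, 5 moved past it and 37, in 9 genes, reversed. Reversed differences were 0.03 for Masp1 (mean of probe sets), -0.07 for Socs3 (array weights, and both settings without low GAPDH arrays), -0.05 for Prss1 (block), 0.00, 0.00 and 0.03 for Amy2a3 (median centring, quantile normalization, array weights), and 0.05 (quantile) and 0.17 (both without low GAPDH arrays) for S100a9. With single arrays left out the ranges were -0.12 to 0.16 for Socs3, -0.44 to 0.05 for Cpa1, -0.06 to 0.05 for Amy2a3, -0.04 to 0.20 for S100a8, -0.21 to 0.15 for S100a9, -0.17 to 0.52 for Igfbp1 and -0.12 to 0.02 for Bmal1. The cause was not tested. Of all genes 8.05% had a mean below the highest mean of the poly-A spike probe sets (a Phe probe set left out), near background.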
